A study of Mus musculus with 9 samples.

Results

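The genes Ctnnb1, Ctnnbip1, Apc, Axin1, Gsk3a, Gsk3b, Csnk1a1, Btrc, Ctnna1 and Ctnnd1, 10 in all, were followed on arrays of a mouse pancreatic cancer cell line. They encode beta-catenin, its inhibitor ICAT, the proteins that mark beta-catenin for destruction, and the catenins that share its place at cell junctions. Every probe set that the array annotation gives to exactly 1 gene, and to 1 of these 10 symbols, was taken, which gave 35 of the 45037 probe sets in the table. Of these 35, 33 reached a log2 expression of 5 on 3 or more arrays, and 1 probe set of Apc (1420957_at) and 1 of Ctnna1 (1437275_at) did not. No probe set with several symbols named any of the 10 genes.

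The cells were of the line 170#3, of a mixed C57BL6 x FVB x 129Sv background, kept in monolayer in DMEM with serum. One group was stably transfected with beta-catenin, one with ICAT, and one is labelled control, with 3 arrays each and 9 in all. The labels do not give the promoter or species of the transfected sequences, what the control cells carried, or whether a group was 1 clone. They call the arrays of a group biological replicates without tying them to separate transfections, so the spread behind each p-value is that between these 9 samples and may be technical.

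Beta-catenin is both a junction protein and the transcriptional partner of TCF/LEF factors in Wnt signalling. Without a Wnt signal, free beta-catenin is held by the scaffolds Axin and APC, phosphorylated first by casein kinase 1 alpha and then by glycogen synthase kinase 3, recognised by the F-box protein beta-TrCP and degraded. ICAT binds beta-catenin and keeps it from TCF factors. At the plasma membrane beta-catenin and p120-catenin bind the tails of cadherins, and alpha-catenin links beta-catenin to actin. Loss of Axin or APC stabilises beta-catenin protein in several cancers. The arrays measured RNA, and beta-catenin is controlled to a large part at the protein level, which was not measured here.

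Values are log2 expression after RMA, so a difference of 1 is a doubling. Array medians lay between 6.21 and 6.29. Correlations between arrays of a group ran from 0.9971 to 0.9978 in beta-catenin cells, 0.9941 to 0.9959 in ICAT cells and 0.9976 to 0.9982 in control cells. The median SD of a probe set between the 3 arrays was 0.0857 in beta-catenin, 0.115 in ICAT and 0.0714 in control cells, and for the 35 probe sets it was 0.0625, 0.07 and 0.047 in the same groups. Of 6 epithelial markers, Cdh1 reached at most 3.56 on any array and Krt7 at most 5.15. Epcam lay between 7.335 and 7.645 and Krt19 between 5.10 and 5.66 on all arrays. Krt8 averaged 6.41 in beta-catenin, 7.34 in ICAT and 6.45 in control cells, and Krt18 averaged 6.79, 8.51 and 7.23. Both keratins were called higher in ICAT than in control cells (limma, adjusted p = 0.0001345 and 0.000597). Among 6 mesenchymal markers, Vim averaged 13.79 in beta-catenin, 14.16 in ICAT and 14.26 in control cells. Zeb1 lay between 9.53 and 9.73 on all arrays. In ICAT against control cells Fn1 was 2.46-fold, Col1a1 3.63-fold and Col1a2 2.73-fold higher, and Cdh2 was 1.63-fold lower. In beta-catenin against control cells Col1a1 was 2.20-fold higher. Vim was 1.38-fold, Fn1 1.27-fold, Col1a2 2.6-fold and Cdh2 1.95-fold lower there. All of these fold differences were called (limma, adjusted p under 0.05). Among 3 pancreatic lineage genes, Pdx1 averaged 9.14 in beta-catenin, 8.45 in ICAT and 8.67 in control cells. Sox9 averaged 9.01, 9.54 and 9.01 in the same order. Against control, Pdx1 was called higher in beta-catenin and lower in ICAT cells (limma, adjusted p = 0.000475 and 0.0454). Sox9 was called higher in ICAT cells (limma, adjusted p = 0.000156) and was not called in beta-catenin cells. Ptf1a lay between 4.83 and 5.15 on all arrays. Of 3 leukocyte markers, Ptprc stayed at or below 4.50 on all arrays. Cd14 averaged 7.77 in beta-catenin, 8.19 in ICAT and 8.28 in control cells and Cd68 averaged 5.50, 6.27 and 6.05, and both were called lower in beta-catenin than in control cells (limma, adjusted p = 0.00299 and 0.00116). Of 3 endothelial markers, Cdh5 stayed at or below 4.72, Pecam1 lay between 5.04 and 5.36 and Kdr between 7.34 and 7.67, with none called against control. Markers moved with the groups. The mean log2 level of 6 mesenchymal markers was 10.3 to 10.4 on beta-catenin arrays, 11.3 to 11.4 on ICAT arrays and 10.7 on control arrays, with 1 higher and 4 lower in beta-catenin cells and 3 higher and 1 lower in ICAT cells, each against control. That of 6 epithelial markers was 5.69 to 5.78, 6.07 to 6.37 and 5.79 to 5.84 in the same order, with none called in beta-catenin cells and 2 higher in ICAT cells. The part of these shifts in the results for the 10 genes was not tested, and in bulk RNA fewer cells with a transcript and less of it per cell cannot be told apart.

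The changes among the 10 genes were small. Axin1 was lower in both transfected lines by both of its probe sets. Gsk3b was higher in ICAT cells, Ctnnd1 higher in both lines, and Ctnna1 lower and Btrc higher in beta-catenin cells by some of their probe sets. One Apc probe set was 1.67-fold higher in beta-catenin cells, the largest difference of any of the 35, and the other 3 did not follow it. A probe set was called at an adjusted p under 0.05 (limma, two-sided, Benjamini-Hochberg over all 45037 probe sets). In beta-catenin against control cells 10 of the 35 were called, 6 higher and 4 lower, which is 28.6 percent, beside 22.1 percent of all probe sets, 11.9 percent higher and 10.2 percent lower. In ICAT against control cells 11 were called, 8 higher and 3 lower, or 31.4 percent beside 23.1 percent of all probe sets, 11.1 percent higher and 12 percent lower. All probe sets include dim ones and 9160 with no gene symbol. By the brightest probe set of each gene, 26.9 percent of all genes were called in beta-catenin cells and 28.6 percent in ICAT cells. None of the 35 reached a 2-fold difference in either comparison. Called changes of that size were found for 2.89 percent of all probe sets in beta-catenin cells and 1.81 percent in ICAT cells. The median log2 difference over the 35 was -0.01 in beta-catenin cells, beside -0.03 over all probe sets, and 0.07 in ICAT cells, beside -0.02. Without regard to sign, the medians were 0.152 in beta-catenin cells, beside 0.119 over all probe sets, and 0.143 in ICAT cells, beside 0.113. Both comparisons use the same 3 control arrays. The count of 6 higher in beta-catenin cells fell to 2 without beta-catenin replicate 2 and to 3 without beta-catenin replicate 3 or any 1 of the 3 control arrays. The count of 4 lower fell to 2 without control replicate 2 or 3 or beta-catenin replicate 1 or 2. In ICAT cells the count of 8 higher fell to 5 without control replicate 1 or 3. No gene had probe sets called in opposite directions.

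**Figure D1:**
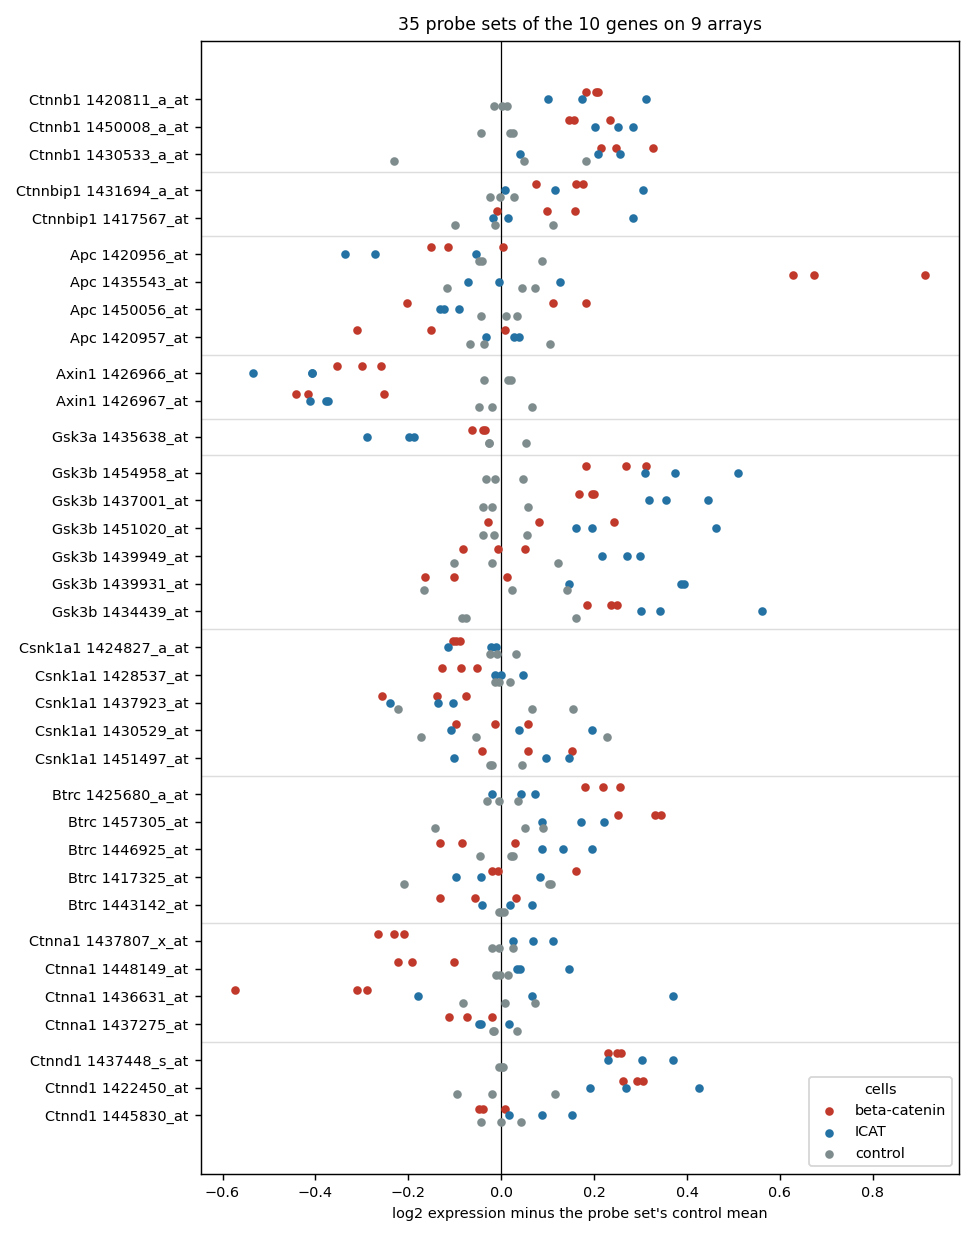
Log2 expression of each of the 35 probe sets on each of the 9 arrays, less the mean of the 3 control arrays for that probe set (x axis), with 1 line of points per group (beta-catenin, ICAT, control from top to bottom) and grey rules between genes. The ICAT and beta-catenin points of both Axin1 probe sets lie below all control points, the ICAT points of all 6 Gsk3b probe sets lie above all control points, and the beta-catenin points of Apc 1435543_at stand alone on the right.

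Ctnnb1, which encodes beta-catenin, lay slightly above control in both transfected lines, and 1 of its 3 probe sets passed, in ICAT cells. Its brightest probe set (1420811_a_at) read 12.87, 12.89 and 12.89 in beta-catenin cells, 13.00, 12.86 and 12.78 in ICAT cells, and 12.69, 12.67 and 12.70 in control cells. Every transfected array lay above every control array, and the ICAT arrays were spread most. The difference was 0.20 in beta-catenin cells (95% interval 0.04 to 0.35, adjusted p = 0.0672) and 0.19 in ICAT cells (0.04 to 0.35, adjusted p = 0.0702), and neither passed. The second probe set (1450008_a_at) read 10.83, 10.84 and 10.92 in beta-catenin cells, 10.97, 10.89 and 10.94 in ICAT cells, and 10.70, 10.64 and 10.71 in control cells. By this probe set Ctnnb1 rose 1.19-fold in ICAT cells (limma, adjusted p = 0.0162; 0.0705 without control replicate 2) and was 0.18 above control in beta-catenin cells without passing (adjusted p = 0.0744). The third (1430533_a_at) read 8.38, 8.35 and 8.46 in beta-catenin cells, 8.39, 8.17 and 8.34 in ICAT cells, and 8.18, 7.90 and 8.32 in control cells, where control replicate 2 was low. Its differences, 0.26 in beta-catenin cells (adjusted p = 0.0904) and 0.17 in ICAT cells (adjusted p = 0.304), did not pass. All 3 probe sets thus pointed upward in both lines, by 0.17 to 0.26. Whether the first probe set passed depended on the settings in both lines. In beta-catenin cells it was called under 8 of 17 alternatives, among them both filters on dim probe sets. Adjusted p ran from 0.00519 to 0.166 over all 17. In ICAT cells it was called under 5 of 17, with adjusted p between 0.00577 and 0.219. The second probe set was called in beta-catenin cells under 4 of 16. The third was called under 2 of 16 in beta-catenin cells and 0 of 16 in ICAT cells.

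Ctnnbip1, which encodes ICAT, was called in neither line by either of its 2 probe sets. Its brightest probe set (1431694_a_at) read 8.72, 8.82 and 8.81 in beta-catenin cells, 8.76, 8.65 and 8.95 in ICAT cells, and 8.64, 8.62 and 8.67 in control cells. The ICAT arrays overlapped those of both other groups. The difference from control was 0.14 in beta-catenin cells (95% interval -0.04 to 0.31, adjusted p = 0.285) and 0.14 in ICAT cells (-0.03 to 0.32, adjusted p = 0.269). The other probe set (1417567_at) gave 0.08 (adjusted p = 0.61) and 0.09 (adjusted p = 0.58). Between the lines the brightest probe set differed by -0.01 (95% interval -0.18 to 0.17, beta-catenin minus ICAT). Since arrays of this kind read the 3′ part of a messenger RNA, an introduced cDNA that lacks it would go unseen. The labels do not give the ends of the introduced cDNAs, and where these probe sets lie was not analysed. The values for Ctnnb1 and Ctnnbip1 thus check neither transgene, and whether transgene RNA was made was not tested.

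**Figure D2:**
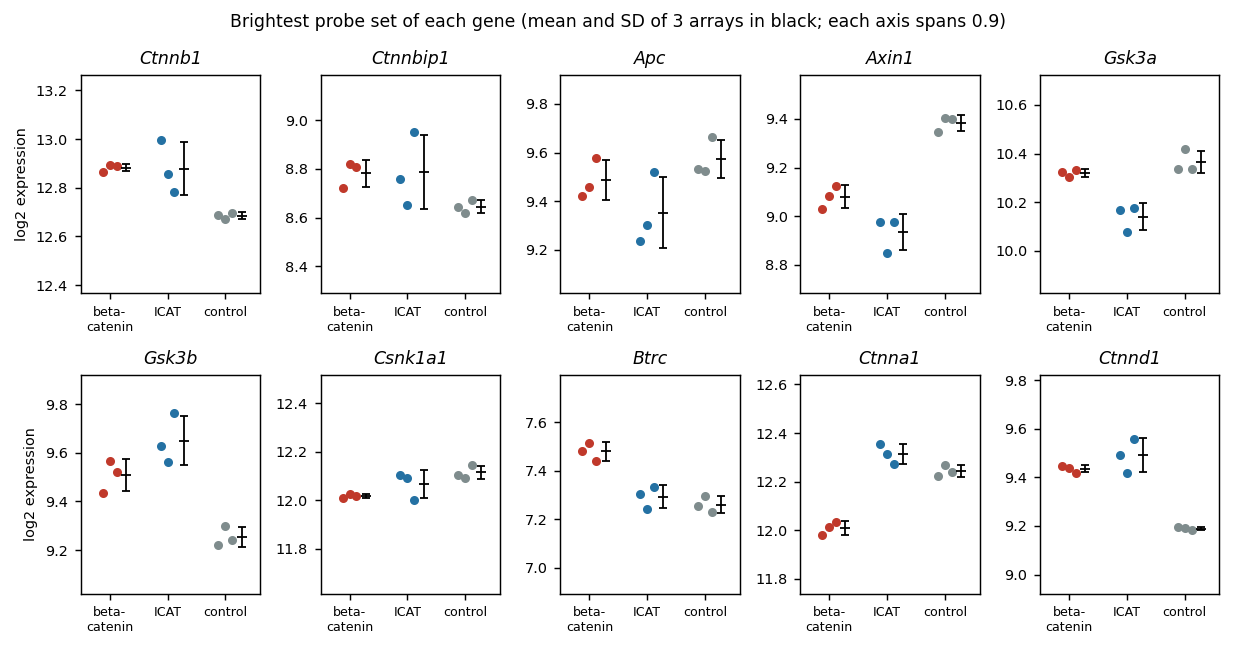
Log2 expression (y axis) of the brightest probe set of each of the 10 genes on the 3 arrays of beta-catenin, ICAT and control cells, with the mean and SD of each group in black. Each panel has its own axis of the same length, so distances compare between panels and heights do not. Axin1 is lowest in ICAT cells and highest in control cells, Gsk3b and Ctnnd1 are lowest in control cells, and Ctnna1 is lowest in beta-catenin cells.

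Axin1, the scaffold on which the destruction complex is built, fell in both lines by both probe sets. The brighter one (1426966_at) read 9.03, 9.08 and 9.12 in beta-catenin cells, 8.98, 8.85 and 8.98 in ICAT cells, and 9.35, 9.41 and 9.40 in control cells. All 6 transfected arrays lay below the lowest control array. It was 1.23-fold lower in beta-catenin cells (log2 difference -0.30 ± 0.07 SE, adjusted p = 0.00589) and 1.37-fold lower in ICAT cells (-0.45 ± 0.07 SE, adjusted p = 0.000407). The other probe set (1426967_at) read 7.24, 7.21 and 7.40 in beta-catenin cells, 7.27, 7.24 and 7.28 in ICAT cells, and 7.60, 7.63 and 7.72 in control cells. By it Axin1 was 1.29-fold lower in beta-catenin cells (adjusted p = 0.00245) and 1.31-fold lower in ICAT cells (adjusted p = 0.00186). All 4 of these calls held under every alternative run, including leaving out each of the 9 arrays, with a highest adjusted p of 0.029. The order of levels was ICAT, beta-catenin, control from low to high, and the first pair were not separated by the test (0.15 and 0.02 between the lines, adjusted p = 0.151 and 0.905).

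Apc, the other large scaffold, gave readings that differed between its probe sets. The probe set 1435543_at read 7.92, 7.97 and 8.21 in beta-catenin cells, 7.29, 7.22 and 7.42 in ICAT cells, and 7.18, 7.37 and 7.34 in control cells. The beta-catenin arrays stood clear of the other 6, while ICAT and control arrays overlapped. It rose 1.67-fold in beta-catenin cells (log2 difference 0.74, 95% interval 0.54 to 0.94, adjusted p = 7.33e-05) while the ICAT difference was 0.02 (95% interval -0.18 to 0.22, adjusted p = 0.939). The brightest Apc probe set (1420956_at) read 9.42, 9.46 and 9.58 in beta-catenin cells, 9.24, 9.30 and 9.52 in ICAT cells, and 9.53, 9.53 and 9.66 in control cells. Its difference in beta-catenin cells was -0.09 (95% interval -0.28 to 0.10, adjusted p = 0.551), an interval that does not meet that of 1435543_at. In ICAT cells the difference of 1420956_at was -0.22 (adjusted p = 0.0934), and it was called under 4 of 17 alternatives. The beta-catenin call of 1435543_at held under every alternative run. The probe set 1450056_at differed from control by 0.03 in beta-catenin cells and -0.12 in ICAT cells, and neither passed (adjusted p = 0.87 and 0.465). The fourth, 1420957_at, lay between 3.31 and 3.73 on all arrays, under the limit of 5. The annotation credits 3 of the 4 to the same Apc reference transcript and 1435543_at to a separate sequence record, and which part of the gene each reads was not analysed here.

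Gsk3b, 1 of the 2 glycogen synthase kinase 3 genes, whose products phosphorylate beta-catenin for destruction, rose in ICAT cells by 5 of its 6 probe sets. The brightest (1454958_at) read 9.44, 9.57 and 9.52 in beta-catenin cells, 9.63, 9.56 and 9.76 in ICAT cells, and 9.22, 9.30 and 9.24 in control cells. It was 1.32-fold higher in ICAT cells (log2 difference 0.40, 95% interval 0.24 to 0.56, adjusted p = 0.00176) and 1.19-fold higher in beta-catenin cells (0.25, 0.09 to 0.42, adjusted p = 0.0265). The next (1437001_at) read 9.46, 9.43 and 9.46 in beta-catenin cells, 9.58, 9.62 and 9.71 in ICAT cells, and 9.22, 9.24 and 9.32 in control cells. In this case the 3 groups did not overlap at all, with ICAT highest and control lowest. It passed in ICAT cells (1.29-fold, adjusted p = 0.00136) and not in beta-catenin cells (0.19, adjusted p = 0.0678). The probe sets 1434439_at, 1439931_at and 1439949_at rose 1.32-fold, 1.24-fold and 1.20-fold in ICAT cells (adjusted p = 0.0058, 0.0367 and 0.0251), and 1451020_at was 0.27 above control without passing (adjusted p = 0.0577). In all 6 the 3 ICAT arrays lay above the 3 control arrays. Arrays of these groups did not overlap for 18 of the 35 probe sets, beside 35.3 percent of all probe sets.

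In beta-catenin cells the Gsk3b probe sets were not of 1 sign. Of the 6, 4 lay above control by 0.10 to 0.25 and 2 below it, 1439949_at by -0.01 and 1439931_at by -0.09, and only 1454958_at passed. Its call was lost without control replicate 1 or 3 or beta-catenin replicate 2 or 3 (adjusted p from 0.0772 to 0.107). In ICAT cells the calls of 1454958_at, 1437001_at and 1434439_at held under every alternative run. Those of 1439949_at and 1439931_at were lost without control replicate 1 or 3 or ICAT replicate 2 or 3 (with adjusted p between 0.052 and 0.116 for the first and between 0.0809 and 0.162 for the second). The last was lost too in a fit of the 6 ICAT and control arrays alone (adjusted p = 0.0592) and with arrays centred on their medians (adjusted p = 0.0565).

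Gsk3a, the paralogous kinase, has 1 probe set (1435638_at), and it lay lower in ICAT cells. It read 10.33, 10.30 and 10.33 in beta-catenin cells, 10.17, 10.08 and 10.18 in ICAT cells, and 10.34, 10.42 and 10.34 in control cells. The ICAT arrays lay below the other 6. Gsk3a fell 1.17-fold in ICAT cells (log2 difference -0.23, 95% interval -0.37 to -0.08, adjusted p = 0.0255) and was -0.05 from control in beta-catenin cells (-0.19 to 0.10, adjusted p = 0.698). The ICAT call was lost without ICAT replicate 2 or any 1 of the control arrays (with adjusted p between 0.0561 and 0.106) and with only the 6 arrays of these groups fitted (adjusted p = 0.0553). The 2 kinase genes thus carried calls of opposite sign in ICAT cells.

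The 250 bases before the annotated starts of the 2 kinase genes are shown, from RefSeq on build GRCm38.p6. Gsk3a lies on the minus strand at chr7:25237852-25238101 and Gsk3b on the plus strand at chr16:38088751-38089000. Capitals mark a match to a TCF/LEF core, searched on both strands as CTTTGAA or CTTTGAT or CTTTGTA or CTTTGTT, and no other motif was searched.
Gsk3a: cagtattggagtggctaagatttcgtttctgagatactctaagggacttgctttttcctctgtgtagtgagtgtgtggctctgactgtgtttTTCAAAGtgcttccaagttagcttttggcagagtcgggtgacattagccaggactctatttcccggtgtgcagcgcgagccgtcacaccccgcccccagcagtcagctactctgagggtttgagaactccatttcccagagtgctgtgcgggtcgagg
Gsk3b: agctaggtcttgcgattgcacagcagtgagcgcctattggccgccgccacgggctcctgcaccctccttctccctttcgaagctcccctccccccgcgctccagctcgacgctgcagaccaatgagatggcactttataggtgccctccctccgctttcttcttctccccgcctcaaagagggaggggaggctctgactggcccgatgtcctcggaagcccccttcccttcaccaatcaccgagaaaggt
The Gsk3a window holds 1 match and the Gsk3b window none, and 14.8 percent of 32851 promoter windows of this length hold at least 1. The promoter table held 5 of the 10 genes (Ctnnb1, Ctnnbip1, Gsk3a, Gsk3b and Ctnnd1) with 8 windows, and the Gsk3a window was the 1 of these 8 with a match. A match is a string of letters and not a measured site, and its part in the calls of the 2 genes was not tested.

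Csnk1a1, which encodes the casein kinase that primes beta-catenin for glycogen synthase kinase 3, was called by none of its 5 probe sets in either line. The brightest (1424827_a_at) read 12.01, 12.03 and 12.02 in beta-catenin cells, averaged 12.07 ± 0.06 in ICAT cells (SD, n = 3), and read 12.11, 12.09 and 12.15 in control cells. The beta-catenin arrays lay just below the control arrays, by -0.10 (95% interval -0.24 to 0.04, adjusted p = 0.35), and ICAT arrays overlapped both. Over the 5 probe sets the differences ran from -0.16 to 0.06 in beta-catenin cells and from -0.16 to 0.05 in ICAT cells.

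Btrc, which encodes the F-box protein that recognises phosphorylated beta-catenin, was higher in beta-catenin cells by 2 of 5 probe sets. The brightest (1425680_a_at) read 7.48, 7.52 and 7.44 in beta-catenin cells, 7.30, 7.24 and 7.33 in ICAT cells, and 7.26, 7.30 and 7.23 in control cells. It rose 1.16-fold in the beta-catenin line (adjusted p = 0.0297) and lay at the control level in ICAT cells (0.03, 95% interval -0.11 to 0.17, adjusted p = 0.812). The probe set 1457305_at read 6.64, 6.72 and 6.73 in beta-catenin cells, 6.61, 6.56 and 6.47 in ICAT cells, and 6.47, 6.24 and 6.44 in control cells, and rose 1.24-fold in the beta-catenin line (adjusted p = 0.0127; 0.0664 without control replicate 2). In both the beta-catenin arrays lay above the other 6. The call of 1425680_a_at did not survive the removal of any 1 of the 6 arrays compared (adjusted p from 0.0512 to 0.115). The other 3 probe sets lay between 5.13 and 6.08 on all arrays and were -0.06 to 0.04 from control in beta-catenin cells, and none of the 5 passed in ICAT cells.

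Ctnna1, which encodes alpha-catenin, the link from beta-catenin to actin, was lower in beta-catenin cells. Its brightest probe set (1437807_x_at) read 11.98, 12.01 and 12.04 in beta-catenin cells, 12.36, 12.31 and 12.27 in ICAT cells, and 12.22, 12.27 and 12.24 in control cells. The beta-catenin arrays lay below the other 6, and the lowest ICAT array equalled the highest control array to 2 decimals. It was lower by 1.18-fold in the beta-catenin line (log2 difference -0.23, 95% interval -0.37 to -0.10, adjusted p = 0.0183) and was 0.07 above control in ICAT cells (adjusted p = 0.548). The suffix x in the name of this probe set marks probes that may also match other transcripts. The probe set 1448149_at, without that suffix, read 11.84, 11.87 and 11.96 in beta-catenin cells, 12.11, 12.10 and 12.21 in ICAT cells, and 12.06, 12.05 and 12.08 in control cells. It was -0.17 from control in beta-catenin cells without passing (adjusted p = 0.0973). The dimmer 1436631_at read 5.66, 5.40 and 5.69 in beta-catenin cells, 6.04, 5.80 and 6.34 in ICAT cells, and 5.89, 6.05 and 5.98 in control cells, and fell 1.31-fold in the beta-catenin line (adjusted p = 0.0403). All 4 probe sets had beta-catenin arrays below all control arrays, though 1437275_at, under the limit of 5, differed by only -0.07 (adjusted p = 0.524). In this comparison arrays did not overlap for 21 of the 35 probe sets, beside 40.8 percent of all probe sets. The call of 1437807_x_at was lost without control replicate 2 or 3 or beta-catenin replicate 1 or 2 (adjusted p from 0.0575 to 0.0696). That of 1436631_at was lost when any single array of the 6 compared was removed (adjusted p from 0.0521 to 0.168) and with arrays centred on their medians (adjusted p = 0.0619).

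Ctnnd1, which encodes p120-catenin, a protein that binds the cadherin tail and slows its removal from the membrane, rose in both lines by 2 of 3 probe sets. The brightest (1437448_s_at) read 9.45, 9.44 and 9.42 in beta-catenin cells, 9.49, 9.42 and 9.56 in ICAT cells, and 9.19, 9.19 and 9.18 in control cells. The 3 control arrays were almost equal and lay below all 6 others. It rose 1.19-fold in the beta-catenin line (adjusted p = 0.0163) and 1.23-fold in ICAT cells (adjusted p = 0.0047). The probe set 1422450_at read 8.96, 8.95 and 8.92 in beta-catenin cells, 9.08, 8.93 and 8.85 in ICAT cells, and 8.56, 8.77 and 8.64 in control cells. It rose 1.22-fold in the beta-catenin line (adjusted p = 0.0232) and 1.23-fold in ICAT cells (adjusted p = 0.019). The third (1445830_at) lay between 6.20 and 6.40 and passed in neither (adjusted p = 0.841 in beta-catenin, 0.453 in ICAT cells). The ICAT call of 1437448_s_at held under every alternative run, and the ICAT call of 1422450_at was lost without control replicate 1 or 3 or ICAT replicate 1 (with adjusted p between 0.0673 and 0.0895). In beta-catenin cells 1437448_s_at was not called without beta-catenin replicate 2 or any 1 of the control arrays (adjusted p from 0.0506 to 0.0603), nor 1422450_at without control replicate 1 or 3 or any 1 of the beta-catenin arrays (adjusted p from 0.0515 to 0.106).

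**Figure D3:**
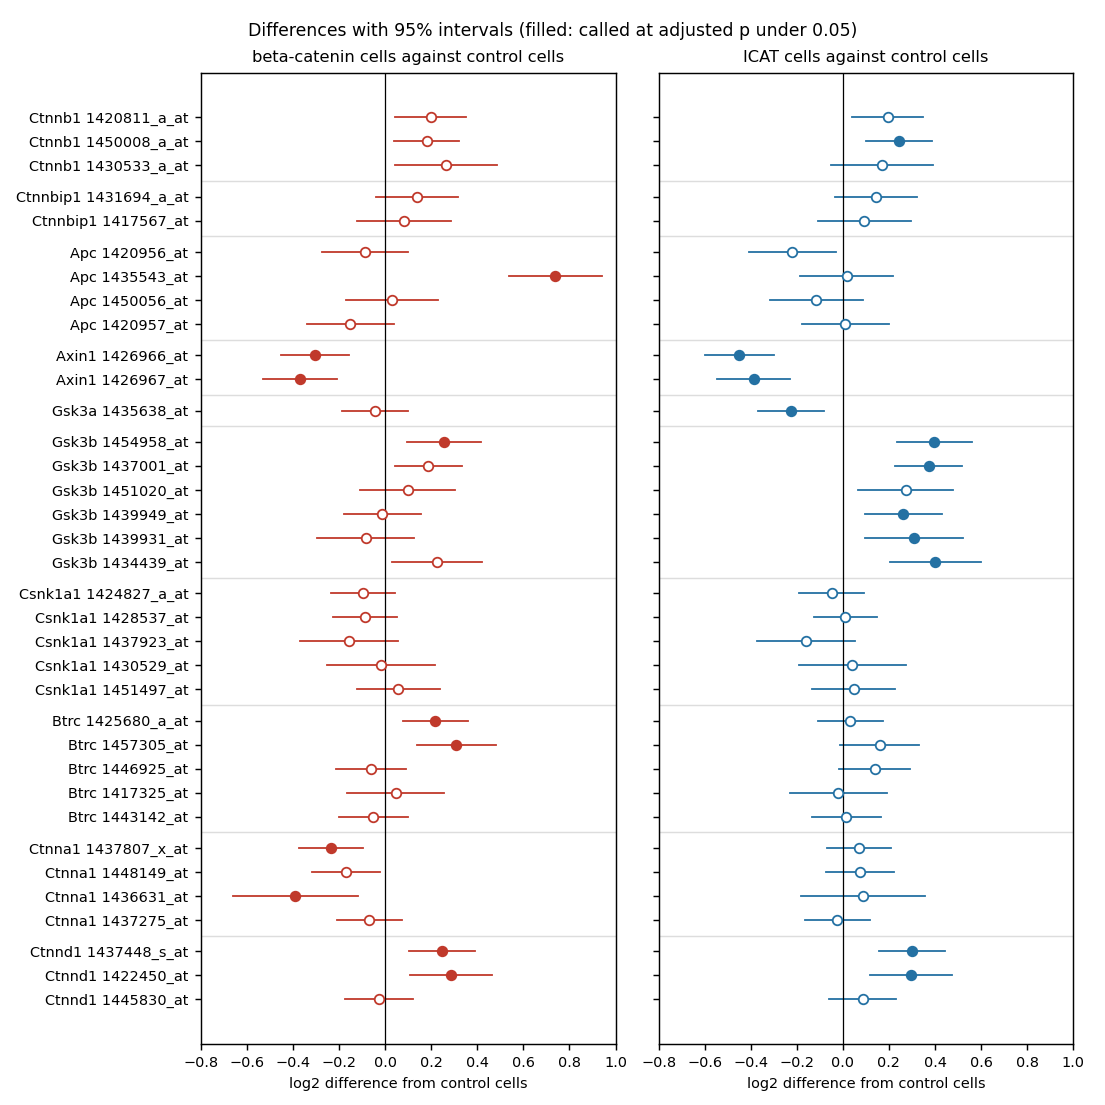
Log2 difference from control (x axis) of each of the 35 probe sets in beta-catenin cells (left) and ICAT cells (right), with 95% intervals from limma. Filled points passed an adjusted p of 0.05. Both Axin1 probe sets are filled on the left side of 0 in both panels, 5 of 6 Gsk3b points are filled in the ICAT panel and 1 in the beta-catenin panel, and Apc 1435543_at is filled in the beta-catenin panel at 0.74. The panels share their control arrays.

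Set directly against each other, beta-catenin and ICAT cells differed at 6 of the 35 probe sets, 1 higher and 5 lower in beta-catenin cells, which is 17.1 percent beside 26 percent of all probe sets, 14.4 percent higher and 11.6 percent lower. Arrays of the 2 lines did not overlap for 15 of the 35, beside 36.9 percent of all probe sets. The one higher in beta-catenin cells was Apc 1435543_at (1.65-fold, adjusted p = 9.33e-05). Ctnna1 was lower in beta-catenin than in ICAT cells by 3 of 4 probe sets, 1.23-fold for 1437807_x_at (adjusted p = 0.00335), 1.19-fold for 1448149_at (adjusted p = 0.017) and 1.39-fold for 1436631_at (adjusted p = 0.0123). Gsk3b was lower in beta-catenin cells by all 6 probe sets and called for 2, 1439931_at (1.31-fold, adjusted p = 0.00884) and 1439949_at (1.21-fold, adjusted p = 0.0175). The brightest Gsk3b probe set differed by -0.14 between the lines (95% interval -0.30 to 0.02, adjusted p = 0.201), and Gsk3a by 0.18 (0.04 to 0.32, adjusted p = 0.0646). Axin1, Ctnnd1, Ctnnb1, Ctnnbip1, Csnk1a1 and Btrc had no called difference between the lines. The count of 5 lower fell to 2 without beta-catenin replicate 2, where 1439949_at (adjusted p = 0.0792), Ctnna1 1448149_at (adjusted p = 0.0623) and 1436631_at (adjusted p = 0.0609) were not called. The call of 1448149_at was lost too without beta-catenin replicate 1 (adjusted p = 0.0613) and with arrays centred on their medians (adjusted p = 0.0625). The count of 1 higher became 2 without beta-catenin replicate 1 and 3 without ICAT replicate 3.

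Other genes of the pathway were read by the brightest single-gene probe set of each, 60 genes in all. Scaffold, kinase, phosphatase and tankyrase genes had 3 of 25 members higher and 7 lower in beta-catenin cells, and 2 higher and 3 lower in ICAT cells. With 1 probe set per gene, 26.9 percent of all genes were called in beta-catenin cells, 15.3 percent higher and 11.6 percent lower, and 28.6 percent in ICAT cells, 14.6 percent higher and 14 percent lower. Over the 60 genes, 6 were higher and 13 lower in beta-catenin cells and 3 higher and 13 lower in ICAT cells. The ICAT count of 3 became 1 without control replicate 1 or 3 and 5 without ICAT replicate 2, and that of 13 became 8 without control replicate 1 or 2 or ICAT replicate 2. Between the lines 10 were higher and 6 lower in beta-catenin than in ICAT cells, beside 31.6 percent of all genes, 17.6 percent higher and 14 percent lower, and the count of 10 became 6 without beta-catenin replicate 2. The median log2 difference of the scaffold, kinase, phosphatase and tankyrase list was -0.04 in beta-catenin cells, beside -0.03 over all genes, and -0.03 in ICAT cells, beside -0.01. Axin2, the Axin that Wnt signalling induces, was called in neither line (0.05 and 0.03, adjusted p = 0.718 and 0.887). Among the casein kinase genes, Csnk1d rose 1.38-fold in beta-catenin cells (10.84 ± 0.02 SD against 10.37 ± 0.03 in control cells, n = 3 each, adjusted p = 0.000532). Csnk1g3 fell 1.48-fold in the beta-catenin line (adjusted p = 0.000155) and 1.32-fold in ICAT cells (adjusted p = 0.00203). Dvl1, which encodes Dishevelled, the protein that disables the destruction complex on a Wnt signal, was lower by 1.35-fold in beta-catenin cells (adjusted p = 0.00636). Its relative Dvl2 rose 1.21-fold in the beta-catenin line (adjusted p = 0.0417), a call lost without control replicate 2 or 3 or any 1 of the beta-catenin arrays (adjusted p from 0.0759 to 0.143).

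Subunits of protein phosphatase 2A, which removes phosphates from beta-catenin and from other parts of the complex, went both ways. Ppp2r5a was lower by 1.41-fold in the beta-catenin line (adjusted p = 0.000295), though its other probe set was not called. The scaffold subunit gene Ppp2r1b was 1.21-fold higher in the beta-catenin line (adjusted p = 0.0215) and 1.27-fold lower in ICAT cells (adjusted p = 0.00482), and the difference between the lines was 0.62 on the log2 scale (adjusted p = 6.47e-05). Its beta-catenin call was lost without beta-catenin replicate 2 or 3 or any 1 of the control arrays (adjusted p from 0.0572 to 0.0806), while the ICAT call held under every alternative run.

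Ubiquitin ligase and deubiquitinase genes had 3 of 13 measured members higher and 2 lower in beta-catenin cells, and 1 higher and 4 lower in ICAT cells. That is 38.5 percent of the 13 in each line, beside 26.9 and 28.6 percent of all genes. Median log2 differences were 0.11 in beta-catenin cells, beside -0.03 over all genes, and -0.07 in ICAT cells, beside -0.01. Usp9x, which encodes a deubiquitinase, rose 1.70-fold in the beta-catenin line (adjusted p = 2.35e-05) and 1.57-fold in ICAT cells (adjusted p = 0.000134), and of its 6 other probe sets 4 and 5 rose too. Usp7, another deubiquitinase gene, fell 1.40-fold in beta-catenin cells and 1.36-fold in ICAT cells (adjusted p = 0.000407 and 0.000831), with 4 of its 6 other probe sets lower in each line. Cul1, the cullin scaffold of the ligase that contains beta-TrCP, fell 1.34-fold and 1.37-fold (adjusted p = 0.00132 and 0.000871). Skp1, the adaptor that joins cullin and F-box protein, rose 1.24-fold in the beta-catenin line (adjusted p = 0.00788) and was -0.06 from control in ICAT cells (adjusted p = 0.676). Ube2d1, which encodes a ubiquitin-conjugating enzyme, rose 1.55-fold in the beta-catenin line (adjusted p = 4.59e-05). Nedd8, whose product activates cullins, fell 1.21-fold in ICAT cells (adjusted p = 0.0147), a call lost without control replicate 1 or ICAT replicate 2 (with adjusted p between 0.0549 and 0.0604).

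Adherens junction genes had no member of 22 called higher in either line, while 4 were lower in beta-catenin cells and 6 in ICAT cells. The 22 include Cdh1, Cdh5, Cdh11, Ctnna2 and Ctnnd2, which stayed under the log2 limit of 5 on all arrays. The share called was 18.2 percent in beta-catenin cells, beside 26.9 percent of all genes, and 27.3 percent in ICAT cells, beside 28.6 percent. All of these calls were decreases, and of all genes 11.6 percent were called lower in beta-catenin cells and 14 percent in ICAT cells. Median log2 differences were -0.07 in beta-catenin cells, beside -0.03 over all genes, and -0.10 in ICAT cells, beside -0.01. Cdh2, which encodes N-cadherin and stands also in the mesenchymal marker list, had the largest decrease of the 22, 1.95-fold in beta-catenin cells (9.39 ± 0.01 SD against 10.36 ± 0.07 in control cells, n = 3 each, adjusted p = 6.3e-07) and 1.63-fold in ICAT cells (9.66 ± 0.08, adjusted p = 1.83e-05), and its other probe set fell in both lines. Ctnnal1, which encodes an alpha-catenin-like protein, fell 1.51-fold and 1.35-fold (adjusted p = 8.7e-05 and 0.00108). Afdn, which encodes the junction scaffold afadin, was lower by 1.49-fold in the beta-catenin line (adjusted p = 0.000428) and 1.24-fold in ICAT cells (adjusted p = 0.0251). The other Afdn probe set was not called in beta-catenin cells. The ICAT call of Afdn was lost without ICAT replicate 1 or 2 or any 1 of the control arrays (with adjusted p between 0.0565 and 0.0929). Cdh13, which encodes a cadherin without the catenin-binding tail, fell 1.28-fold in ICAT cells (adjusted p = 0.00338). Jup, which encodes plakoglobin, the closest relative of beta-catenin, was 0.15 and 0.18 above control and did not pass (adjusted p = 0.239 and 0.134).

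**Figure D4:**
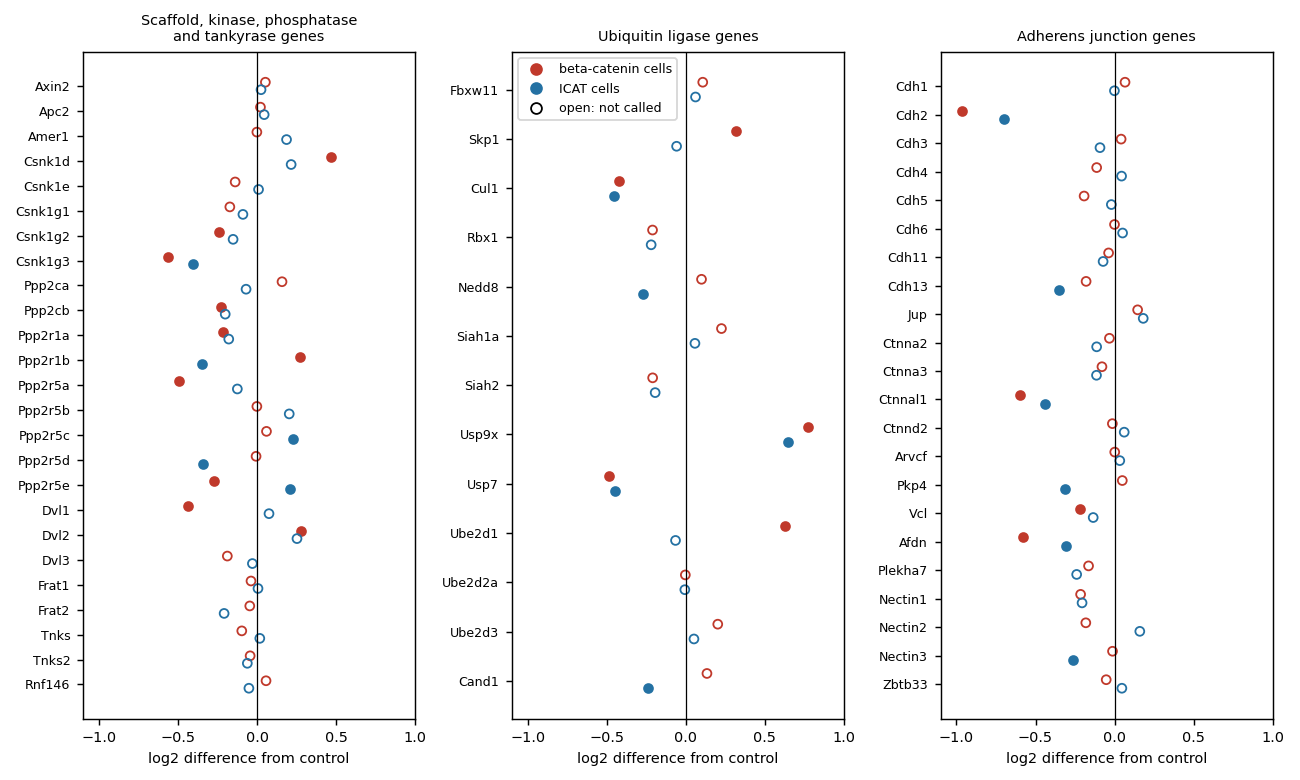
Log2 difference from control (x axis) in beta-catenin and ICAT cells for 60 further genes of the pathway in 3 groups, with 1 probe set per gene. Filled points passed an adjusted p of 0.05 and open points did not. Usp9x and Usp7 stand on opposite sides of 0 with both lines filled, and Cdh2, Ctnnal1 and Afdn are filled below 0 in both lines.

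The probe sets with profiles nearest to the brightest Ctnnb1 probe set, by root mean square distance over the 9 arrays after subtracting each control mean, were those of Marchf7 (0.015), Bcl10 (0.0338) and Hrct1 (0.0355). For Ctnnbip1 they were those of Supt20 (0.0341), Smim7 (0.0412) and Psmc2 (0.0419). Many others lay almost as near: 581 of 27100 candidate probe sets were within 0.1 of the Ctnnb1 profile and 809 of 27101 within 0.1 of the Ctnnbip1 profile.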

How the data were processed

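Total RNA was made into biotin-labelled cRNA with the Affymetrix 3′ IVT Express kit, per the labels' protocols. The deposited table gives log2 values per probe set, for which the submitters' processing notes name RMA and the affy package with no version. Detection calls were not used here, so the limit of log2 5 was chosen. Precision is limited by the number of arrays, 3 per group.

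All 45037 probe sets of the 9 arrays were modelled together, unfiltered, by group means (limma 3.58.1, R 4.3.3; residual degrees of freedom 6, prior 6.13). Tests were moderated and two-sided, and p-values were Benjamini-Hochberg adjusted within a comparison. With 3 arrays in each group the smallest exact permutation p is 0.1, so no such test was run on single values. Symbols of the other genes were updated by Entrez identifier, which matched 34741 of 34945 single-gene probe sets in a RefSeq table. Every probe set of the 10 genes was tested, and some of Csnk1a1 and Btrc are given only as ranges. In each of 3 lists of other pathway genes, up to 3 called genes with the largest rise and up to 3 with the largest fall per comparison with control could be named, and not all are described. For Ctnnb1 and Ctnnbip1 the 3 nearest profiles were named. Axin2, Jup and the markers were added outside that rule. The members and lists were chosen with earlier results of these data known. Skp1a, Siah1b and Uba1 had no single-gene probe set under that symbol. The calculation was tested on simulated data, and no arrays were identical. Alternatives were 2 filters, 1 probe set per gene, median centring, fits of 6 arrays, array weights, an intensity trend, a replicate block and omission of each array.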

Additional observations from a re-analysis of the deposited data

Results flagged for a closer look

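At 6 probe sets beta-catenin and ICAT cells differed by a direct test (limma, adjusted p under 0.05, 3 arrays per group). These are 17.1 percent of the 35, beside 26 percent of all probe sets. For Apc 1435543_at the log2 difference was 0.72 (adjusted p = 9.33e-05), with all 3 beta-catenin arrays above all 3 ICAT arrays. For Gsk3b it was -0.275 at 1439949_at (adjusted p = 0.0175) and -0.39 at 1439931_at (adjusted p = 0.00884). For Ctnna1 it was -0.30 at 1437807_x_at (adjusted p = 0.00335), -0.25 at 1448149_at (adjusted p = 0.017) and -0.48 at 1436631_at (adjusted p = 0.0123). In the 5 negative cases all 3 beta-catenin arrays lay below all 3 ICAT arrays. Such a gap between these groups, in either direction, was found for 15 of the 35 and 36.9 percent of all probe sets. Probe sets of a gene share their RNA.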

How the results depend on the processing

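Of 105 differences (35 probe sets in 3 comparisons), 27 were called. Of these calls 15 were lost under at least 1 of up to 17 alternatives, 14 further differences were called under at least 1, and none reversed. Calls held under every alternative run for 3 of 10 in beta-catenin against control cells, 6 of 11 in ICAT against control cells and 3 of 6 between the lines.

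In beta-catenin against control cells, the 6 higher members became 10 with array weights and 2 to 8 when single arrays were left out, and the 4 lower became 2 with 1 probe set per gene and 2 to 4 without single arrays. Among all probe sets, 5372 higher and 4578 lower became 2981 and 2340 with 1 probe set per gene, and the lower count was 7183 with array weights. Leaving out single arrays gave 4300 to 5964 and 3392 to 5425. The 6 higher and 13 lower other pathway genes became 4 to 7 and 9 to 14.

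In ICAT against control cells, the 8 higher members became 3 with 1 probe set per gene, and 5 to 9 without single arrays, and the 3 lower 2 to 4. All probe sets, 5021 higher and 5405 lower, became 2850 and 2820 with 1 probe set per gene, and 4019 to 4871 and 3995 to 6246 without single arrays. The 3 higher pathway genes became 6 with a filter at log2 7 and 1 to 5 without single arrays, and the 13 lower 8 to 16.

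Between the lines, the 1 higher member became 3 with a filter at log2 5 or 7, and 2 with 1 probe set per gene, median centring, array weights or an intensity trend. It became 1 to 3 without single arrays. The 5 lower became 1 with 1 probe set per gene and 2 to 6 without single arrays. All probe sets, 6481 higher and 5233 lower, became 3429 and 2726 with 1 probe set per gene, and 5155 to 7259 and 4239 to 5685 without single arrays. The 10 higher pathway genes became 6 with only the arrays of these groups and 6 to 10 without single arrays, and the 6 lower 4 to 6. Fewer features are tested with 1 probe set per gene or a filter, and for the other settings the cause was not tested.

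Deviations of same-numbered arrays from their group means correlated at -0.0963 to 0.317, the highest for replicate 3 of beta-catenin and ICAT cells. Whether same-numbered arrays shared a batch was not tested. With the replicate number as a block no member call was lost and 3 were gained, Ctnnb1 1430533_a_at in beta-catenin cells (adjusted p = 0.0359), Apc 1420956_at (adjusted p = 0.0378) and Gsk3b 1451020_at (adjusted p = 0.0202) in ICAT cells. Member counts with the block were 7 higher and 4 lower in beta-catenin cells, 9 and 4 in ICAT cells, and 1 and 5 between the lines, and among all probe sets 5526 and 4805, 5110 and 5656, and 6690 and 5479.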
